A study of Mus musculus with 4 samples.

Results

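The genes described here are 10 members of the epidermal growth factor (EGF) system: the receptors Egfr, Erbb2 and Erbb3, the ligands Tgfa, Hbegf, Areg, Ereg, Btc and Epgn, and the receptor inhibitor Errfi1. They were listed by name, and each was represented by its probe set annotated with exactly 1 gene symbol, taking the probe set with the highest mean where a gene has several. Of the 10, 9 had such a probe set, 1 each, among 19938 genes named in the same way, and Areg was not analysed here. The samples were epidermis of hairless mouse hindpaw skin, cut from sections by laser. Noggin epidermis came from transgenic mice in which a K14 promoter, active in basal keratinocytes, drives noggin, a secreted protein that binds and blocks bone morphogenetic proteins. BMP4 epidermis came from mice in which the same promoter drives BMP4, one of those proteins. Each line contributed 2 arrays (replicates 1 and 2), and each array measured pooled RNA of 3 animals. From each animal 8 to 10 strips were cut, and the pools of a line held different animals, 6 in all. Neither strain nor age is stated in the labels. Non-transgenic skin was not analysed here, so every difference lies between both transgenic lines and is written as noggin minus BMP4.

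EGF ligands are made as membrane-bound precursors and are released by metalloproteases of the ADAM family. They bind receptors of the ERBB family, which pair up, phosphorylate each other and signal through RAS and the ERK kinases, phosphatidylinositol 3-kinase and STAT3. In epidermis this system is known for keeping keratinocytes proliferating and migrating, for autocrine stimulation by ligands that keratinocytes make themselves, and for shaping the hair follicle.

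All values are log2 probe set intensities after robust multi-array averaging (RMA). The lower and upper quartiles of the 4 arrays lay at 4.71 to 4.72 and at 7.66 to 7.71. Basal and suprabasal keratinocyte keratins were among the brightest probe sets, with Krt5 between 12.4 and 12.6, Krt10 between 13.3 and 13.4, and Krt9, a keratin of palm and sole epidermis, between 13.3 and 13.4. BMP4 replicate 1 stood apart, where 43 genes exceeded every other array by over 1 log2 unit and 44 fell short of every other array by as much, against 1 to 13 such genes elsewhere. As a check of the labels, Nog, the gene of noggin, read 5.92 and 5.99 on the arrays labelled noggin and 6.13 and 6.04 on those labelled BMP4, so it was not higher in its own line (limma, adjusted p = 0.946). Bmp4 read 7.77 and 7.86 against 8.22 and 8.03, higher in its own line by 1.24-fold (limma, adjusted p = 0.874). Whether these probe sets cover the transgene transcripts was not tested, and noggin and BMP4 here name the libraries as labelled, on which every direction rests. In such bulk samples fewer cells of a type and less RNA per cell cannot be told apart.

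None of the 9 measured genes passed the test between noggin and BMP4 epidermis. The means of the receptors and of Tgfa differed by 0.06 log2 units or less, Hbegf, Ereg and Btc had higher means in noggin, and Epgn and Errfi1 had higher means in BMP4. The test was limma over all 35556 probe sets with Benjamini-Hochberg adjustment, which called 0 probe sets (0%) at an adjusted p below 0.05, and the smallest adjusted p among the 9 was 0.940. At an unadjusted p below 0.05 it also gave 0 of the 9, against 4.28% of all named genes. The noggin values were both lower than either BMP4 value for 2 of the 9 genes, against 17.9% of named genes, and both higher for 0 of the 9, against 15.7%. The median difference was -0.01 over the 9 genes and -0.0064 over all named genes. With 2 arrays against 2, an exact two-sided permutation test of a single gene cannot go below 0.333.

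**Figure D1:**
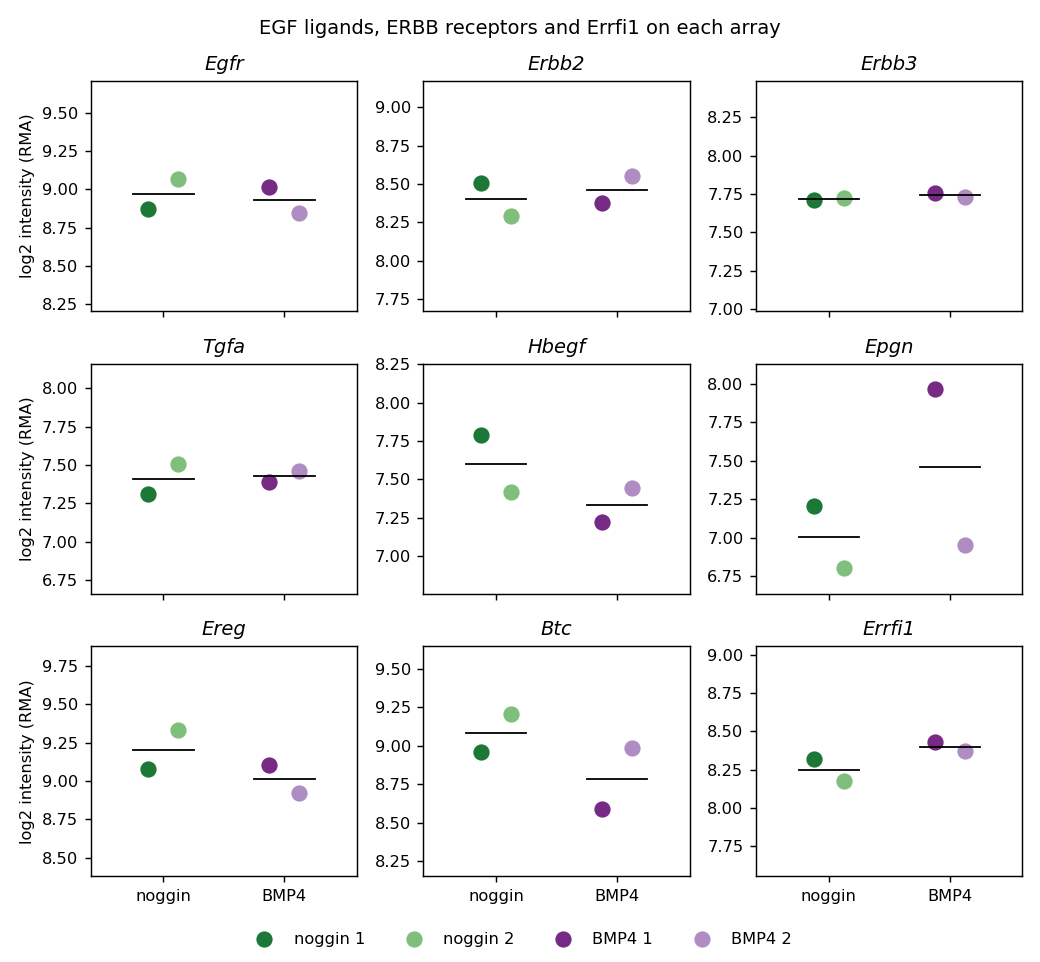
Log2 RMA intensity (y axis, each panel spanning 1.5 units) of the 9 measured genes on the noggin and BMP4 arrays (x axis). Points are arrays of 3 pooled animals and bars are the means of 2 arrays. Epgn on BMP4 replicate 1, at 7.97, stands above the 3 other arrays, while the 4 points of Erbb3 lie within 0.046.

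Egfr encodes the receptor that binds all 6 listed ligands, and it was measured at 8.87 and 9.06 on the noggin arrays and at 9.01 and 8.85 on the BMP4 arrays. The groups overlapped, and the lowest and the highest value were those of BMP4 replicate 2 and noggin replicate 2. The difference of means was 0.04, and its 95% interval ran from -0.30 to 0.38 (limma, adjusted p = 0.998), which corresponds to folds between 0.812 and 1.30. Mice with reduced activity of this receptor have a wavy coat, which gave the mutant waved-2 its name.

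Erbb2, a receptor without a known ligand of its own that serves as the preferred partner of the other ERBB receptors, was at 8.51 and 8.29 on the noggin arrays and at 8.38 and 8.55 on the BMP4 arrays. Its groups overlapped as well, with noggin replicate 2 lowest. The difference was -0.06 with an interval from -0.42 to 0.29 (limma, adjusted p = 0.990). Egfr and Erbb2 thus each spread over about the same width on the 4 arrays, 0.22 and 0.26, and that spread lay within the groups.

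Erbb3, a receptor for neuregulins with little kinase activity, which signals through its partners, was nearly level. It was at 7.71 and 7.73 on the noggin arrays and at 7.76 and 7.73 on the BMP4 arrays. The whole range of 0.046 is smaller than that of nearly all genes, since 1.2% of named genes had a smaller one. The groups did not overlap, with noggin lower, but by a gap of 0.00044, and the difference of -0.02 had an interval from -0.26 to 0.21 (limma, adjusted p = 0.998). Schwann cells and melanocytes also make Erbb3. Of their markers, Sox10 lay between 6.52 and 6.86, above every array median of 6.04 to 6.06. Pmel, between 6.44 and 6.85, and Mlana, between 6.38 and 6.59, were above every array median too. Dct lay between 5.88 and 6.38, and Tyr between 4.27 and 4.44, below the lower quartile of every array. Tyrp1, Mitf and Kit were below every array median. The summed linear intensity of 6 measured Schwann cell markers was 712 and 808 in noggin and 656 and 693 in BMP4, with a higher mean in noggin for 3 of the 6. Without Egr2, which is on the early response list too, the sum was 544 and 505 against 499 and 508, so the groups overlapped. The summed intensity of 7 melanocyte markers was 431 and 449 against 400.0 and 410. The part of these cells in the Erbb3 values was not tested.

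Tgfa, which encodes transforming growth factor alpha and whose loss gives the waved-1 coat, was at 7.31 and 7.51 on the noggin arrays and at 7.39 and 7.46 on the BMP4 arrays. The BMP4 values lay between those of noggin. The difference was -0.01 with an interval from -0.32 to 0.29 (limma, adjusted p = 1).

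Hbegf encodes the heparin-binding ligand, known for its induction in wounded epidermis. It was at 7.79 and 7.42 on the noggin arrays and at 7.22 and 7.44 on the BMP4 arrays. Noggin replicate 1 was the high array and BMP4 replicate 1 the low one, while the replicate 2 arrays of both lines differed by 0.029. The difference of means was 0.27, a 1.20-fold higher mean in noggin, with an interval from -0.21 to 0.75 (limma, adjusted p = 0.946). It was 0.08 without noggin replicate 1.

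The other ligands, Epgn, Ereg, Areg and Btc, lie next to each other in that order on chromosome 5, with no other protein-coding gene between them in the GRCm38.p6 RefSeq table. RefSeq start-site sequences of that build were found for 7 of the 10 members. The 250 bases before the start are printed for Epgn and Btc, chosen after their values were seen as the neighbours with the widest ranges over the arrays. Ereg had no such sequence and Areg no measured value, so no other neighbour had both. The Epgn window is chr5:91027267-91027516 on the plus strand, and the Btc window is chr5:91402995-91403244 on the minus strand, both written 5′ to 3′. Capitals mark CACCC, a box bound by Krüppel-like factors, and TATAAA, the letters of the TATA box, on either strand.
Epgn: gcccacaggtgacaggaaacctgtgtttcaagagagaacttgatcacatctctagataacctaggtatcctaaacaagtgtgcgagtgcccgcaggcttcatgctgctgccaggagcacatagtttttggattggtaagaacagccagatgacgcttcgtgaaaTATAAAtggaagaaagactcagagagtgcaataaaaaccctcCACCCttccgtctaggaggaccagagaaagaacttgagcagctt
Btc: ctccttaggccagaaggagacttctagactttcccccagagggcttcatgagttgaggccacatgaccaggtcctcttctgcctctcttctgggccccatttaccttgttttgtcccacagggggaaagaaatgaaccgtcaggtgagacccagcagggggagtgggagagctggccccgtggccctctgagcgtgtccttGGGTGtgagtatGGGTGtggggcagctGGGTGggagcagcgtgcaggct
CACCC begins 44 bases before the start in Epgn and 49, 37 and 22 bases before it in Btc, where all matches are on the opposite strand, and it is found in 52% of 32851 start-site windows of the same length. TATAAA begins 86 bases before the start in Epgn, is not in the Btc window and is found in 12.4% of windows. Of the other members with a sequence, Areg holds it 31 bases before the start and Errfi1 28 bases before 1 of its starts. It is not in the windows of Egfr, Erbb2 and Tgfa. The AP-1 motif TGANTCA and the SMAD motifs GGCGCC and CAGAC were searched on both strands and are not in the printed letters of Epgn or Btc, while 6.75%, 9.59% and 42.2% of windows hold them. None of the matches overlap. These are descriptions of the sequence, and the arrays do not measure binding.

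Epgn encodes epigen, a ligand of low affinity for EGFR, and varied most of the 9 genes. It was at 7.20 and 6.80 on the noggin arrays and at 7.97 and 6.95 on the BMP4 arrays. BMP4 replicate 1 was high, and BMP4 replicate 2 lay between the noggin arrays. The range of 1.17 exceeds that of 98.4% of named genes. In BMP4 the mean was 7.46 ± 0.72 (SD, n = 2), which is 1.37-fold above the noggin mean, whose SD was 0.29 (n = 2). The difference of -0.46 had an interval from -1.54 to 0.62 (limma, adjusted p = 0.953), and it turned to 0.05 without BMP4 replicate 1.

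Btc encodes betacellulin, which binds both EGFR and ERBB4, and it was at 8.96 and 9.21 on the noggin arrays and at 8.59 and 8.98 on the BMP4 arrays. BMP4 replicate 1 was again the outermost array, here the lowest, while BMP4 replicate 2 lay 0.024 above noggin replicate 1. The means were 9.08 ± 0.18 (SD, n = 2) and 8.79 ± 0.28 (SD, n = 2), 1.23-fold higher in noggin. The difference of 0.30 had an interval from -0.21 to 0.80 (limma, adjusted p = 0.940), the smallest adjusted p of the 9 genes, and it was 0.10 without BMP4 replicate 1.

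Ereg encodes epiregulin, a ligand of EGFR and ERBB4 made by keratinocytes, and it was at 9.08 and 9.33 on the noggin arrays and at 9.10 and 8.92 on the BMP4 arrays. Noggin replicate 2 was high, and the other noggin array lay 0.028 below BMP4 replicate 1. The difference of 0.19, a 1.14-fold higher mean in noggin, had an interval from -0.19 to 0.57 (limma, adjusted p = 0.946), and it was 0.06 without noggin replicate 2. Among these neighbouring genes, Epgn therefore had the higher mean in BMP4 and Ereg and Btc in noggin, and all 3 intervals included 0.

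Errfi1 encodes MIG6, a feedback inhibitor that is induced by EGFR signalling and blocks the receptor's kinase. It was at 8.32 and 8.18 on the noggin arrays and at 8.43 and 8.37 on the BMP4 arrays. Errfi1 and Erbb3 were the genes without overlap between the groups, noggin being lower, in Errfi1 by a gap of 0.054. The means were 8.25 ± 0.098 (SD, n = 2) and 8.40 ± 0.040 (SD, n = 2), 1.11-fold higher in BMP4. The difference of -0.15 had an interval from -0.42 to 0.12 (limma, adjusted p = 0.946) and ranged from -0.22 to -0.08 on leaving out 1 array.

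**Figure D2:**
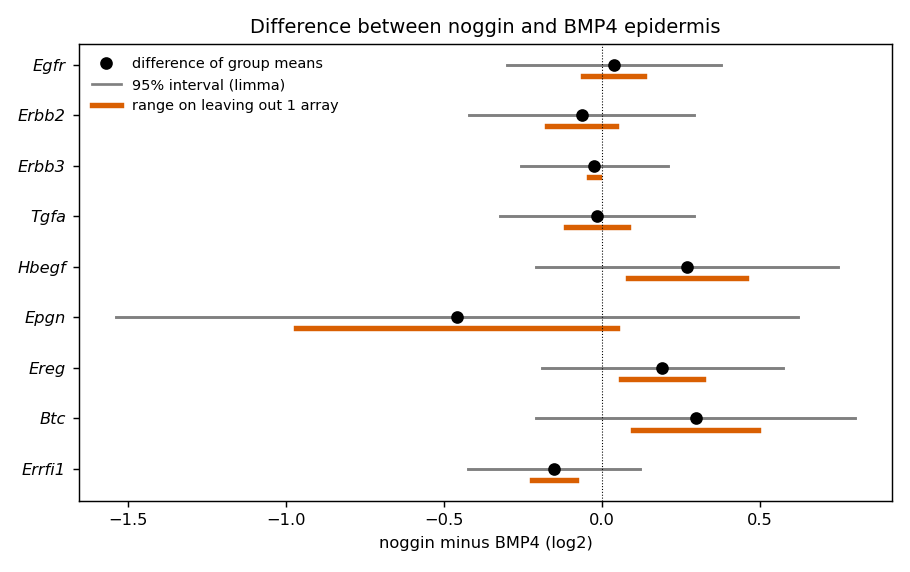
Difference of group means, noggin minus BMP4 in log2 units (x axis), for the 9 genes (y axis). Points are differences, grey lines 95% intervals from limma and orange lines the range on leaving out 1 array in turn. Every grey line crosses 0, and the orange lines of Egfr, Erbb2, Tgfa and Epgn do as well.

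BMP4 replicate 1 held the highest Epgn and the lowest Btc and Hbegf values. It was also the array with the lowest Langerhans cell and macrophage and skeletal muscle sums and the highest hair shaft sum. The Schwann cell, melanocyte, T cell, dermal fibroblast, endothelial and sebaceous gland sums were lowest there too. Low sums on that array were thus not particular to the Langerhans cell and macrophage and muscle lists. Relative to each gene's mean over the arrays, Epgn was 0.74 above and Btc 0.35 below on BMP4 replicate 1. On that array the 8 Langerhans cell and macrophage markers had a median deviation of -0.83 and the 9 skeletal muscle markers of -0.88. The summed linear intensity of the Langerhans cell and macrophage markers was 2969 and 3186 in noggin and 1199 and 2413 in BMP4, and 8 of 8 had a higher mean in noggin. That of the muscle markers was 8192 and 3831 in noggin and 2098 and 5016 in BMP4, highest on noggin replicate 1, where Hbegf was highest, and lowest on BMP4 replicate 1, where Hbegf was lowest. The sebaceous gland sum, at 3068 and 2807 in noggin and 1783 and 2238 in BMP4, was highest and lowest on the same arrays. The hair shaft list, of which 6 of 8 genes were measured, summed to 308 and 317 in noggin and 3431 and 801 in BMP4. This sum was highest where Epgn was highest, mainly through Krt84, at 5.47 and 5.71 in noggin and 11.6 and 9.09 in BMP4. On BMP4 replicate 2 the hair shaft sum was above both noggin sums, while Epgn, at 6.95, was below its 7.20 on noggin replicate 1. Krt31 and Krt34 were lower in noggin by gaps of 0.021 and 0.017, and Krt33a, Krt35 and Hoxc13 overlapped between the groups. The basal keratinocyte markers, 7 of 7 measured, stayed between a median deviation of -0.07 and 0.08. Their sum was 14107 and 15169 in noggin and 15863 and 15257 in BMP4, so it too was highest on BMP4 replicate 1. No defining marker was listed at 0, which an RMA table does not contain, and the part of these cells in the values of the ligands was not tested.

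**Figure D3:**
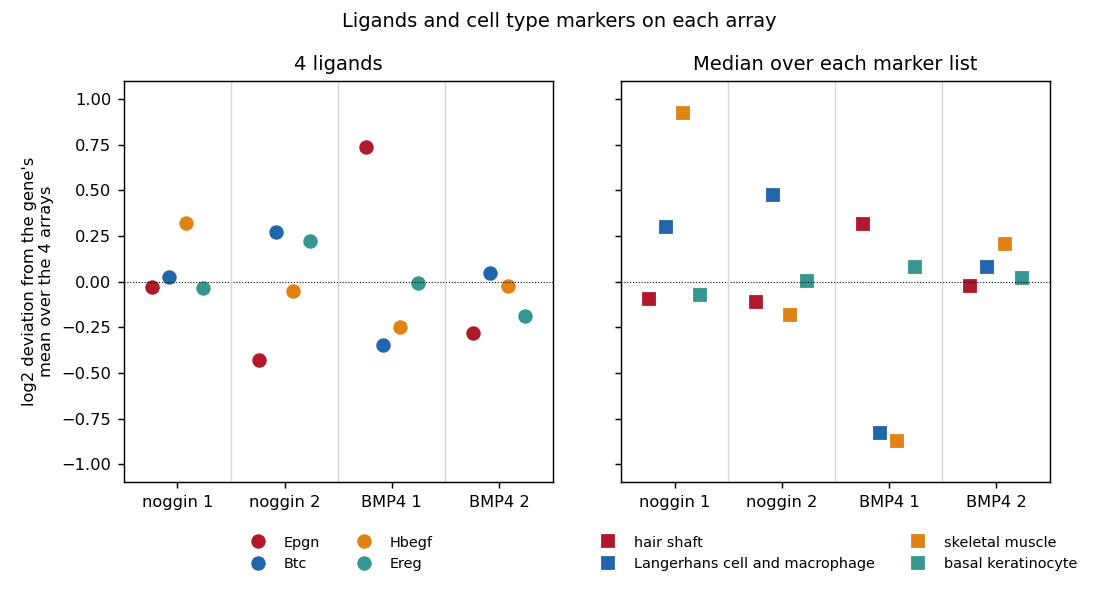
Log2 deviation from the gene's mean over the 4 arrays (y axis) by array (x axis), for Epgn, Btc, Hbegf and Ereg (left) and as the median over 4 lists of cell type markers (right). On BMP4 replicate 1 Epgn is at 0.74 and Btc at -0.35, with the Langerhans cell and macrophage list at -0.83 and the muscle list at -0.88.

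Beyond the 10 listed genes, 88 of 93 other genes of the pathway, in 5 lists, were measured under 1 symbol. Limma passed 0 of the 88 at an adjusted p below 0.05 and gave 7, or 7.95%, at an unadjusted p below 0.05, against the 4.28% of named genes. Without overlap between the groups, noggin was higher for 24 of the 88 and lower for 15, against 15.7% and 17.9% of named genes. The genes named below are the 2 of smallest p in each list and those fixed by name, unless stated otherwise.

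Of the other EGF-like ligands and Erbb4, 6 of 6 were measured, 1 with a higher mean in noggin. Their median difference of -0.11 ranged from -0.22 without noggin replicate 1 to -0.0080 without noggin replicate 2. Without overlap, noggin was higher for 1 of the 6 and lower for 2, against 15.7% and 17.9% of named genes. Nrg4, a neuregulin that binds ERBB4, was at 6.90 and 6.60 on the noggin arrays and at 6.18 and 6.35 on the BMP4 arrays. Both noggin arrays were the higher, by 1.39-fold in the means (limma, unadjusted p = 0.0297, adjusted p = 0.857), and the difference of 0.48 lay between 0.33 and 0.63 on leaving out 1 array. Its receptor Erbb4 was at 4.91 and 4.79 in noggin and at 5.09 and 5.16 in BMP4, and both BMP4 arrays were the higher. Its difference was -0.27 (limma, unadjusted p = 0.0479, adjusted p = 0.874), at values so near the lower quartile that detection is unknown. Egf itself was as dim, between 4.77 and 5.15, and Nrg3 lay between 4.50 and 4.68. Nrg1 differed by -0.0043 and Nrg2 by -0.18, with adjusted p of 1 and 0.951 (limma).

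The genes of ligand shedding and trafficking were all measured, 14 of 14, and noggin had the higher mean in 10 of them. Their median difference was 0.12. Without overlap, noggin was higher for 7 of the 14 and lower for 2, against 15.7% and 17.9% of named genes. Most of these gaps were small. Named after their values were seen, Adam9, Adam10, Adam17, Rhbdf1 and Bace1 were higher by gaps of 0.018 to 0.080 (limma, unadjusted p from 0.225 to 0.312). Adam12 and Rhbdf2 were lower by gaps of 0.013 and 0.030. Rhbdl2, a rhomboid protease of the plasma membrane, was at 7.84 and 7.74 on the noggin arrays and at 7.13 and 7.28 on the BMP4 arrays. The groups were 0.46 apart, and the means differed 1.50-fold (limma, unadjusted p = 0.00469, adjusted p = 0.732). Timp3, the tissue inhibitor of ADAM17, was at 8.59 and 8.39 in noggin and at 8.17 and 8.13 in BMP4, 1.27-fold higher in noggin (limma, unadjusted p = 0.0336, adjusted p = 0.867). The difference was 0.11 for both Adam17, which releases most of these ligands, and Adam10, which releases betacellulin (limma, adjusted p = 0.956 and 0.952).

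Receptor adaptors and kinase cascades, 21 of 26 measured, had a median difference of -0.07, and 6 had a higher mean in noggin. Without overlap, noggin was higher for 1 of the 21 and lower for 5, against 15.7% and 17.9% of named genes. Akt1, a kinase downstream of phosphatidylinositol 3-kinase, differed by -0.19 (limma, adjusted p = 0.930). Ptpn11, the phosphatase SHP2 that relays receptor signals to RAS, differed by -0.16 (limma, adjusted p = 0.940). None of the 21 was at an unadjusted p below 0.05, and the differences ran from -0.21 to 0.22.

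Negative regulators of ERBB signalling, 27 of 27 measured, had a median difference of 0.03, and 16 had a higher mean in noggin. Noggin was higher without overlap in 9 of the 27 and lower in 2, against the same shares of 15.7% and 17.9%. Cblb, a ubiquitin ligase that targets activated receptors, was at 9.44 and 9.31 in noggin and at 8.90 and 9.16 in BMP4 (limma, adjusted p = 0.874). Ptprk, a receptor phosphatase that acts on EGFR, was at 8.79 and 8.61 in noggin and at 7.60 and 8.51 in BMP4, and its difference of 0.64 was 0.19 without BMP4 replicate 1 (limma, adjusted p = 0.934). Lrig1, which promotes receptor degradation, differed by 0.16, and the ERK phosphatase gene Dusp6 by -0.08 (limma, adjusted p = 0.939 and 0.993). On leaving out 1 array, Lrig1 ranged from 0.09 to 0.24, and Dusp6 turned its sign, from -0.33 to 0.18. Spry2, an inhibitor of RAS signalling induced by growth factors, differed by -0.39 through a low noggin replicate 2, at 6.84 against 7.46 to 7.57 on the other arrays (limma, adjusted p = 0.939), and by -0.09 without that array.

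Early response genes induced by ERK signalling, 20 of 20 measured, had a median difference of 0.01, and 13 had a higher mean in noggin. Fosl1, the AP-1 subunit FRA1, was at 7.44 and 7.28 on the noggin arrays and at 6.68 and 6.85 on the BMP4 arrays, 1.51-fold higher in noggin (limma, unadjusted p = 0.00660, adjusted p = 0.736). Phlda1, an ERK-induced gene, was at 8.98 and 8.82 in noggin and at 8.41 and 8.47 in BMP4, 1.38-fold higher in noggin (limma, unadjusted p = 0.0109, adjusted p = 0.768). Another gene below an unadjusted p of 0.05, Fosb, named after its values were seen, was at 8.05 and 7.68 in noggin and at 7.12 and 7.34 in BMP4 (limma, unadjusted p = 0.0194, adjusted p = 0.834). Over the whole list, noggin was higher without overlap for 6 of the 20 genes and lower for 4, against 15.7% and 17.9% of named genes. Those 4 were Jun, Egr3, Ier3 and Etv4, named after their values were seen, with differences of -0.09, -0.10, -0.09 and -0.24.

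**Figure D4:**
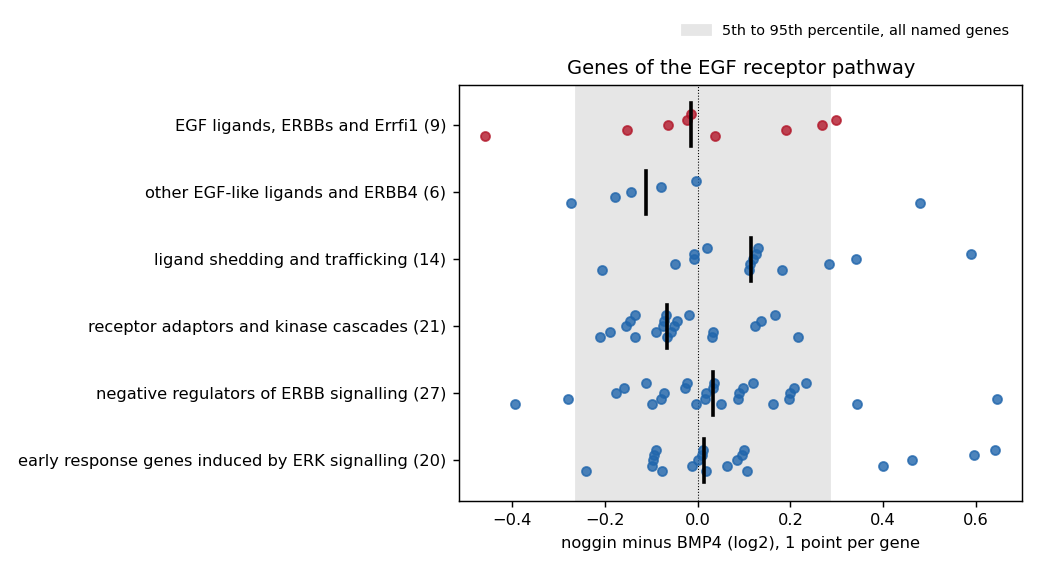
Difference between noggin and BMP4 in log2 units (x axis) for each gene (1 point) of the 9 measured genes (red) and of the 5 lists of other pathway genes (blue), with the number of genes in brackets. Black bars are medians, and the grey band holds the 5th to 95th percentile of all named genes, -0.263 to 0.285. The medians of the lists lie between -0.11 and 0.12, inside the band, and Epgn at -0.46 is the red point farthest from 0.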

How the data were processed

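RNA from laser-captured hindpaw epidermis was amplified and hybridised, with 3 animals pooled for each of 4 arrays. The values deposited by the authors are log2 probe set intensities, made with RMA in Affymetrix Expression Console (no versions), as far as the submitters' processing notes list tools. RMA equalises the arrays' distributions and compresses changes of dim probe sets. Detection above background and scan batches are unknown, and the number of arrays limits the precision. The pools of a group hold different animals, so p-values measure the spread between pools.

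Of 35556 probe sets, 21789 have 1 gene symbol in the platform table, 1621 several and 12146 none, and 21698 of the first matched the GRCm38.p6 RefSeq table by Entrez identifier. A two-sided limma 3.58.1 fit (R 4.3.3, lmFit and eBayes) over all probe sets had the line as its one term, 2 residual and 2.08 prior degrees of freedom, Benjamini-Hochberg adjustment over all probe sets and a threshold of 0.05. The code was tested on simulated data. Lists are described by counts and medians only, in 5 pathway and 13 marker lists. The alternatives are given in the closing section. The genes named from each pathway list are the 2 of smallest p, the other ligands and Erbb4, Adam17, Adam10, Lrig1, Dusp6 and Spry2. The members and lists were chosen with earlier results of these data known. No label ties the replicate numbers to a litter, batch or day, so whether they pair the arrays is unknown. Deviations of same-numbered arrays from group means correlated at -0.09 over all named genes, which cannot exclude a shared batch acting on some genes. Figures were drawn with matplotlib 3.10.9.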

Additional observations from a re-analysis of the deposited data

How the results depend on the processing

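The 12 alternatives were median centring, further quantile normalization, cyclic loess, leaving out probe sets with a mean below 4.73, the replicate block, a trend or robust prior, the mean of a gene's probe sets and leaving out each array. Under each of them limma called 0 of the 9 genes, and under those run on probe sets it called 0 probe sets, with the replicate block also 0, where 1736 probe sets lay at an unadjusted p below 0.05, against 1994 without it. Without BMP4 replicate 2 the smallest adjusted p over all probe sets was 0.0954, and 1 of the 9 genes lay at an unadjusted p below 0.05. The block changed no call. On leaving out 1 array the difference ranged from -0.060 to 0.13 for Egfr, -0.17 to 0.045 for Erbb2, -0.11 to 0.084 for Tgfa and -0.97 to 0.050 for Epgn, so the sign of these 4 genes turned. The sign of the other 5 turned under no alternative that gave a difference. The median difference of the 9 genes was -0.026 after quantile normalization and ranged from -0.030 to 0.083 on leaving out 1 array. That of the pathway lists ranged from -0.22 to -0.0080 for other EGF-like ligands and ERBB4, 0.081 to 0.16 for shedding and trafficking, -0.061 to -0.019 for adaptors and kinases (-0.056 after cyclic loess), -0.0080 to 0.074 for negative regulators and -0.042 to 0.070 for early response genes. Each lone array was assumed to vary like the other group, and the cause of these shifts was not tested.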

Other observations

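The marker lists not described above differed as follows between noggin and BMP4 epidermis, as median log2 differences with no test. Leaving out each array in turn was added for them after the data had been seen. Sebaceous gland markers had a median difference of 0.56, which is the value of Scd1, a fatty acid desaturase, and it was 0.29 without BMP4 replicate 1. Noggin was higher without overlap between the groups for 4 of the 7 sebaceous genes, against 15.7% of named genes. These were Scd1, Awat2, Plin2 and Mgst1, named after their values were seen. Elovl3, Pparg and Fasn overlapped between the groups, with differences of 0.75, 0.012 and -0.029. Whether the sebaceous list reflects gland cells here was not tested. T cell markers had a median of 0.24 over 5 measured genes, 1 of them higher in noggin without overlap, and it was 0.13 without BMP4 replicate 1.

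The muscle list was at 0.79, with all 9 genes overlapping between the groups, and at 0.13 without BMP4 replicate 1 or 0.15 without noggin replicate 1. The Langerhans cell and macrophage list was at 0.76. Noggin was higher without overlap for 7 of its 8 genes, against 15.7% of named genes. The median difference of that list was 0.36 without BMP4 replicate 1. The hair shaft list was at -0.15 and at -0.051 without that array. The basal keratinocyte list was at -0.10 and ranged from -0.14 to -0.048 on leaving out 1 array, and the suprabasal list was at 0.04 and ranged from 0.04 to 0.105. The sign turned on leaving out 1 array for Schwann cell and melanocyte markers, both at 0.06, for endothelial markers at 0.11, for dermal fibroblast markers at -0.03, and for sweat gland and Merkel cell markers, which share Krt8 and Krt18, both at -0.0082.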
